A study of Mus musculus with 13 samples.

Results

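The genes described here are 10 members of 2 families of transcription factors, chosen by name because 2 of the study's 3 compounds are directed at their proteins. They are the E2F genes E2f1, E2f2, E2f3, E2f4, E2f7 and E2f8, the RUNX genes Runx1, Runx2 and Runx3, and Cbfb, which encodes the shared partner of the RUNX proteins. Of these 10, 5 are listed for at least 1 compound, among 1593 genes listed for any compound: E2f2, E2f7, E2f8, Runx2 and Runx3. RNA was sequenced from cultured astrocytes, glial cells that support neurons, which were isolated from the retina and optic nerve of wild type C57BL/6 mice aged postnatal days 1 to 3 and grown in 10% serum. For 24 h 4 cultures received vehicle and 3 each received HLM006474, SB431542 or another compound, 13 samples in all, and the labels give no dose. HLM006474 is an inhibitor of E2F proteins and SB431542 of the kinase activity of TGF-beta and activin receptors. The remaining compound is an inhibitor of RUNX1 and CBFB, written as the RUNX1 inhibitor in the text and by its full code name in the plots. Whether a compound acted through its named target was not tested.

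E2F proteins bind DNA, most of them together with a DP partner, and control genes for DNA synthesis and the passage into S phase. E2f1, E2f2 and E2f3 are known as activators that the retinoblastoma protein holds in check, E2f4 acts mainly as a repressor with the pocket proteins, and E2f7 and E2f8 are atypical repressors that bind DNA without a DP partner and damp the same target genes late in S phase. RUNX proteins bind DNA as a pair with CBFB. Runx1 is known for blood cell formation, Runx2 for bone and Runx3 for T cells and sensory neurons, and all 3 can work together with SMAD proteins of the TGF-beta pathway.

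The deposited tables hold fold changes and no value per sample, so values per culture, their overlap and the depth of each library are unknown here. All fold changes below are log2 values against vehicle ± standard error (SE) as the authors fitted them with DESeq2, and the adjusted p is theirs. A gene is listed when its adjusted p is under 0.05 and its fold change is at least about 1.5. The mean count is the authors' mean of normalised counts over libraries. Nothing in the labels says whether cultures came from separate animals, and the p-values therefore reflect only how far these cultures varied, which may be technical. The tables also carry transcripts of other cells. Beside the astrocyte genes Fabp7 and Kcnj10, with mean counts of 18965 and 23893 in the authors' deposited tables, the macrophage lysozyme gene Lyz2 had 24249. In bulk RNA of this kind, fewer cells of a type and less RNA per cell cannot be told apart.

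The promoter sequences were searched for E2F and RUNX motifs, which only some members held. RefSeq promoters on GRCm38.p6, 250 bases before to 50 after a start, matched 9 of the 10 members with 13 windows in all. E2f4 had no window. The E2f1 window lies inside E2f1 as annotated in GENCODE M21, so bases upstream of that annotated start were not searched. The search used 4 forms of the E2F motif, TTTCCCGC, TTTCGCGC, TTTGCCGC and TTTGGCGC, on both strands. One of them was present in windows of 3 members, E2f2, E2f3 and E2f7, and in 2.26% of all 32851 promoters. The 7-letter core, the same forms without their first T, was tried after the sequences had been seen. It was also present in E2f8, and so in 4 of the 13 member windows, while 9.57% of all promoters hold it. The 4 stretches are printed 5′ to 3′ on the strand of the gene, with matches in capitals (the 8-letter forms for E2f2, E2f3 and E2f7 and the 7-letter core for E2f8), and those of E2f3 and E2f7 read as the reverse complement.
E2f2: cgaatttggcggcatatagTTTGGCGCtaa
E2f3: ttgaaaagccgGCGGGAAAtctgagtttcg
E2f7: cccgcgtccccGCGGGAAAcgctcccgcgt
E2f8: agaggcgcggaTTGGCGCgcggggccccgg
The E2f2 stretch is chr4:136172294-136172323 on the plus strand, just downstream of the RefSeq start and outside any gene of GENCODE M21, which begins E2f2 further downstream. The E2f3 stretch is chr13:29986056-29986085 on the minus strand and spans the start of the 5′ untranslated exon. The E2f7 stretch is chr10:110745230-110745259 on the plus strand, upstream of the gene and outside annotated genes. The E2f8 stretch is chr7:48881689-48881718 on the minus strand, upstream of E2f8 and inside an intron of the neighbouring gene Gm2788.

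E2f8, which had the largest fall among the 5 listed members, has its core match at position -111 from the start, within this 250-base stretch at chr7:48881597-48881846 on the minus strand, core match in capitals.
E2f8 upstream: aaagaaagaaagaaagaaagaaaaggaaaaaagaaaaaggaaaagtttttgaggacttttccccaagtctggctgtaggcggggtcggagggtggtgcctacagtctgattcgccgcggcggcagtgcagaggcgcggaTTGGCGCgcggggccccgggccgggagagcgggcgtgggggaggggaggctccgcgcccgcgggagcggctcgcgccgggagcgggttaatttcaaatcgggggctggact
E2f7, the other atypical gene, carries 3 core matches in its 250 upstream bases, chr10:110745189-110745438 on the plus strand, again in capitals.
E2f7 upstream: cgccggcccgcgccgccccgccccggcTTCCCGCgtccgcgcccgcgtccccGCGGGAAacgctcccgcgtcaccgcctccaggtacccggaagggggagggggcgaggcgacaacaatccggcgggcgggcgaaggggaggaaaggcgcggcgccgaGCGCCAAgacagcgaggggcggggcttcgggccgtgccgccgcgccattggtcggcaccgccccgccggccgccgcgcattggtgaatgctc

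The RUNX promoters share a longer stretch. RUNX motifs were searched as TGTGGT and TGCGGT on both strands. They were found in 3 of the 13 member windows, 1 each of Runx1, Runx2 and Runx3, and in 22.4% of all promoters. The longest run of letters common to a window of each of the 3 genes was 18 bases, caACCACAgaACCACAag, which holds 2 RUNX matches on the opposite strand. It is present in 4 of the 32851 promoters, those of Runx1, Runx2, Runx3 and Gm16225. The stretches are printed with RUNX matches in capitals.
Runx1: cataaacaACCACAgaACCACAagttgggt
Runx2: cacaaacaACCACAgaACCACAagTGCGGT
Runx3: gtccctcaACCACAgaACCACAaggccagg
They are at chr16:92826025-92826054 on the minus strand, in the 5′ untranslated exon of Runx1, at chr17:44814583-44814612 on the minus strand, in an exon of Runx2 that is untranslated or coding depending on the transcript and that lies inside the neighbouring gene Supt3, and at chr4:135120503-135120532 on the plus strand, upstream of Runx3 and outside annotated genes. Runx2 has a further match within its stretch, TGCGGT at its 3′ end. A match is a run of letters and shows no binding in these cells.

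Under HLM006474 the E2F members E2f8, E2f2 and E2f7 and the RUNX member Runx3 fell, and no member was listed as higher. E2f8 fell to 42.6% of vehicle, E2f2 to 49.95%, Runx3 to 50.6% and E2f7 to 59.3%, by the fold changes in the authors' deposited table. These are 4 of 10 members lower, where 4.22% of the 15169 genes tested were called lower and 1.42% higher. The median over the 4 listed members was -0.99, beside -0.84 over the 640 genes listed as lower for this compound in the authors' deposited table. How many of the other 6 passed the authors' limit on low counts is unknown.

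E2f8 (chr7:48866429-48881596, minus strand) stood at -1.23 ± 0.13 with an adjusted p of 4.15e-18 (DESeq2), at a mean count of 397, in the authors' deposited table. The interval of 95% runs from 35.5% to 51.1% of vehicle. E2f8 had the 107th largest fall of the 640 genes listed as lower. Among those with a mean count of at least 100 it had the 22nd largest of 407. E2f2 (chr4:136172394-136196057, plus strand), an activator, stood at -1.001 ± 0.14 with an adjusted p of 8.53e-12 (DESeq2), at a mean count of 178, in the authors' deposited table. Its interval runs from 41.5% to 60.1% of vehicle. E2f7 (chr10:110745439-110787384, plus strand) stood at -0.75 ± 0.24 with an adjusted p of 0.0104 (DESeq2), at a mean count of 272, in the authors' deposited table. Its interval, from 42.7% to 82.3% of vehicle, overlaps that of its close relative E2f8, and the difference between these genes was not tested. Runx3 (chr4:135120652-135177990, plus strand) stood at -0.98 ± 0.27 with an adjusted p of 0.00187 (DESeq2), at the low mean count of 57.6, in the authors' deposited table. Its interval is wide, from 35.2% to 72.7% of vehicle.

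Under the RUNX1 inhibitor E2f8 was the 1 member listed, and none of the RUNX genes or Cbfb was. E2f8 stood at -0.89 ± 0.13 with an adjusted p of 9.22e-10 (DESeq2) in the authors' deposited table, which is 53.9% of vehicle with an interval from 45.0% to 64.5%. This is 1 of 10 members lower, where 2.32% of the 13561 genes tested were called lower and 0.605% higher. The fall of E2f8 was the 102nd largest of the 315 genes listed as lower. With a mean count of at least 100, it was the 49th largest of 225.

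Under SB431542 the 2 members listed were RUNX genes, both lower, and no E2F gene was listed. Runx2 (chr17:44495987-44814797, minus strand) stood at -0.66 ± 0.19 with an adjusted p of 0.00524 (DESeq2), at a mean count of 382, in the authors' deposited table. That is 63.2% of vehicle, with an interval from 48.6% to 82.3%. Runx3 stood at -0.72 ± 0.26 with an adjusted p of 0.0307 (DESeq2) in the authors' deposited table, or 60.5% of vehicle with an interval from 42.4% to 86.3%. These are 2 of 10 members lower, where 2.64% of 15169 genes tested were called lower and 2.29% higher. Both changes lie near the table's limits, and the upper ends of both intervals allow a fall smaller than the fold limit.

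**Figure D1:**
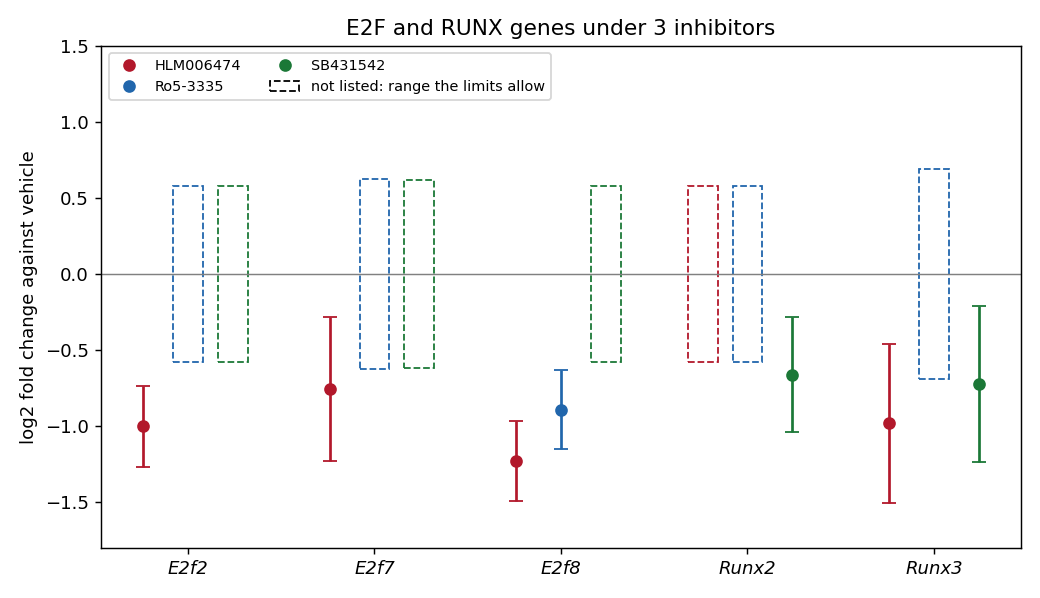
Log2 fold change against vehicle (y axis) of the 5 listed members (x axis) for each compound by colour. Points are the authors' values with 95% intervals. Dashed boxes show the range that the table's limits allow for the fitted value, without its error, where a member is not listed. All 7 points are below 0, from -1.23 for E2f8 under HLM006474 to -0.66 for Runx2 under SB431542.

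A member missing from a table can still have changed. The limits below take a member's standard error from a table that lists it and assume that it was tested. They bound the fitted value and leave out its sampling error. E2f8 under SB431542 then had a fitted value between 66.9% and 150% of vehicle. The same limits hold for E2f2 under the RUNX1 inhibitor and SB431542 and for Runx2 under HLM006474 and the RUNX1 inhibitor. For E2f7 the limits were 64.9% to 154% of vehicle under the RUNX1 inhibitor and 65.0% to 154% under SB431542. Runx3 under the RUNX1 inhibitor, which is directed at its family, may have had a fitted value anywhere from 62.0% to 161% of vehicle. E2f1, E2f3, E2f4, Runx1 and Cbfb are in no table, so neither a level nor such a limit can be given for them.

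Between compounds, the fall of E2f8 under HLM006474 and under the RUNX1 inhibitor differed by -0.34 ± 0.19, with a 95% interval from -0.71 to 0.03. In a 2-sided z test over the 211 genes in both tables this did not pass (adjusted p = 0.388, DESeq2 fold changes), while 20 genes did. This interval includes no difference as well as a clearly larger fall under HLM006474, but it ignores the shared vehicle cultures, which widens it. With their variance removed, the unadjusted interval ran from -0.62 to -0.06. The test still did not pass (adjusted p = 0.0939, z test on DESeq2 fold changes). For Runx3, HLM006474 minus SB431542 gave -0.26 ± 0.37, with an interval from -0.99 to 0.47 (adjusted p = 0.718, z test on DESeq2 fold changes over 161 genes). Each pair shares the vehicle cultures. Where a member is in 1 of 2 tables, the smallest difference that the limits allow was tested over the genes in 1 of the 2 tables whose mean count reached the lowest in the other table. These were 756 of 831 for HLM006474 and the RUNX1 inhibitor, 1281 of 1282 for HLM006474 and SB431542, and 877 of 959 for the RUNX1 inhibitor and SB431542. E2f8 has no value under SB431542. Its fitted value under HLM006474 lay below the range that the limits allow under SB431542. The gap was at least 0.65 on the log2 scale, SE 0.19 with the HLM006474 error taken for both (adjusted p = 0.00912, z test on DESeq2 fold changes, 1281 genes). No other such difference of a member passed. Each such value is the smallest gap between fitted values, and the true difference may be smaller. Genes enter this test by passing the limits of 1 table, which favours large fitted changes there. Its p-values therefore cannot establish a difference between compounds. E2f8 under the RUNX1 inhibitor against SB431542 gave at least 0.31 in size (adjusted p = 0.416), and E2f2 under HLM006474 at least 0.42 against the RUNX1 inhibitor (adjusted p = 0.292) and against SB431542 (adjusted p = 0.204), by z tests on DESeq2 fold changes. For Runx2, Runx3 and E2f7 the adjusted p of this z test on DESeq2 fold changes was 1 in every such pair.

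Among listed genes, the precision of the members did not follow their counts alone. A gene is listed only with a fold change large beside its SE, so genes of like count with a large SE are under-represented. E2f7 had an SE of 0.24 under HLM006474, where the median of 190 listed genes within 1.5-fold of its mean count was 0.15, and 182 of them had a smaller SE. Runx2 under SB431542 stood apart in the same way, with an SE of 0.19 beside a median of 0.13, and 112 of 125 genes of like count had a smaller SE. E2f2 was measured tightly, since 16 of 186 genes of like count had a smaller SE. E2f8 and Runx3 were near the middle, with 84 of 147 and 52 of 130 genes below them under HLM006474. Which cultures carry the spread of E2f7 and Runx2 is unknown without values per sample.

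**Figure D2:**
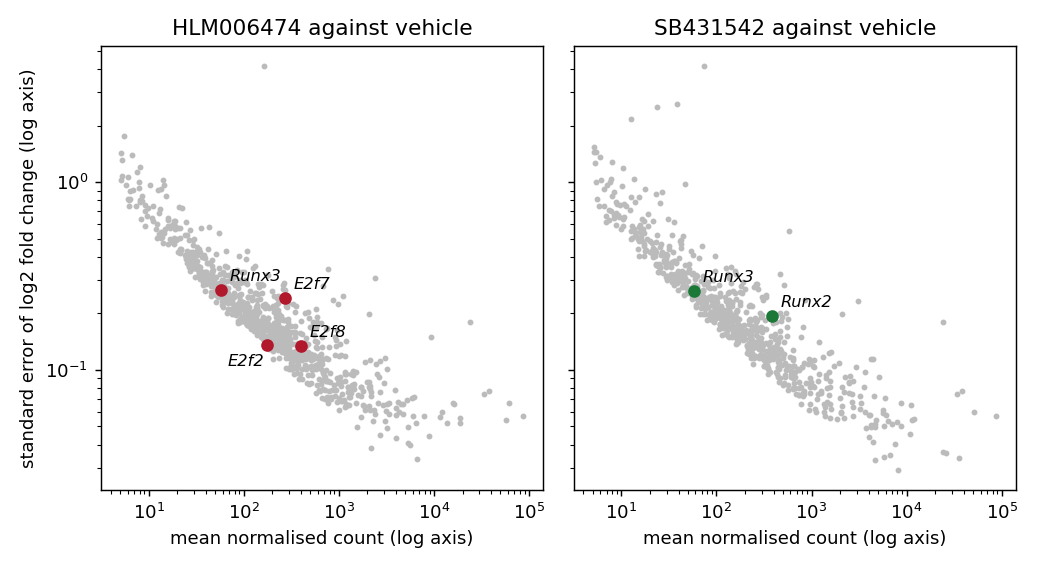
Standard error of the log2 fold change against the mean normalised count, both on log axes, for all genes listed under HLM006474 (left) and SB431542 (right). Grey points are all listed genes and coloured points are members. E2f7 and Runx2 lie along the upper edge of listed genes with like counts.

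By level, E2f8 was highest among the listed members. Per kilobase of GENCODE M21 exon it had a mean normalised count of 72.9, followed by Runx2 with 43.2, E2f2 with 36.4, E2f7 with 30.1 and Runx3 with 11.5, with no spread over samples to separate neighbours in this order. These means run over all groups. Taking them as means over 13 libraries, the fold changes place vehicle E2f8 between 454 and 580 normalised counts, HLM006474 between 193 and 247 and the RUNX1 inhibitor between 244 and 312. Each range covers what is unknown about the unlisted compound, not the error. For Runx3 the same arithmetic gave 61.5 to 81.4 in vehicle, 31.1 to 41.2 under HLM006474 and 37.2 to 49.3 under SB431542.

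The listed genes around the E2F members were all lower. Of 12 E2F partners and pocket proteins 2 were listed, and both fell under HLM006474 and the RUNX1 inhibitor: Mybl2, a MYB family factor of the S and G2 phases, and Foxm1, which drives mitotic genes. Mybl2 stood at -1.25 ± 0.16 under HLM006474 and -0.89 ± 0.16 under the RUNX1 inhibitor in the authors' deposited tables. Foxm1 stood at -0.79 ± 0.12 and -0.63 ± 0.12 in the same order in the authors' deposited tables. The DP partner genes Tfdp1 and Tfdp2 and the pocket protein genes Rb1, Rbl1 and Rbl2 were not listed for any compound, nor were the family genes E2f5 and E2f6. Of 18 cyclins, cyclin-dependent kinases and their inhibitors, 3 fell under HLM006474 and 2 under the RUNX1 inhibitor. Among all genes tested, 4.22% were called lower under HLM006474 and 2.32% under the RUNX1 inhibitor. Of all listed genes, 74.8% and 79.3% were lower, in that order. Cyclin A2, Ccna2, stood at -0.85 ± 0.056 and -0.73 ± 0.056 in that order in the authors' deposited tables. Cyclin E2, Ccne2, stood at -0.77 ± 0.16 and -0.74 ± 0.16 in the authors' deposited tables. It is also counted among the E2F target genes below. Cdkn1c, an inhibitor of these kinases, was listed under HLM006474 at -1.38 ± 0.23 in the authors' deposited table.

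Of 38 E2F target genes, 33 were listed as lower under HLM006474 and 19 under the RUNX1 inhibitor, and none was listed as higher. Over all genes tested, 4.22% and 2.32% were called lower in the same order. The gene and marker lists were chosen with earlier results of these data known, so such counts are descriptive. Under SB431542 none of the 38 was listed, and p-values of unlisted genes were not analysed here. The median fall of the listed targets was -0.83 under HLM006474 and -0.69 under the RUNX1 inhibitor, beside -0.84 and -0.77 over all genes listed as lower. E2f8 fell further than 30 of the 33 listed targets under HLM006474 and further than 17 of 19 under the RUNX1 inhibitor. E2f2 fell further than 24 of 33 and E2f7 further than 9 of 33. The replicative helicase subunit Mcm2 stood at -1.05 ± 0.065 and -0.63 ± 0.064 under HLM006474 and the RUNX1 inhibitor in the authors' deposited tables. Uhrf1, which guides maintenance DNA methylation, stood at -1.24 ± 0.081 and -0.87 ± 0.080 in the authors' deposited tables. Rrm2, the small subunit of ribonucleotide reductase, had -0.95 ± 0.077 under the RUNX1 inhibitor in the authors' deposited table.

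**Figure D3:**
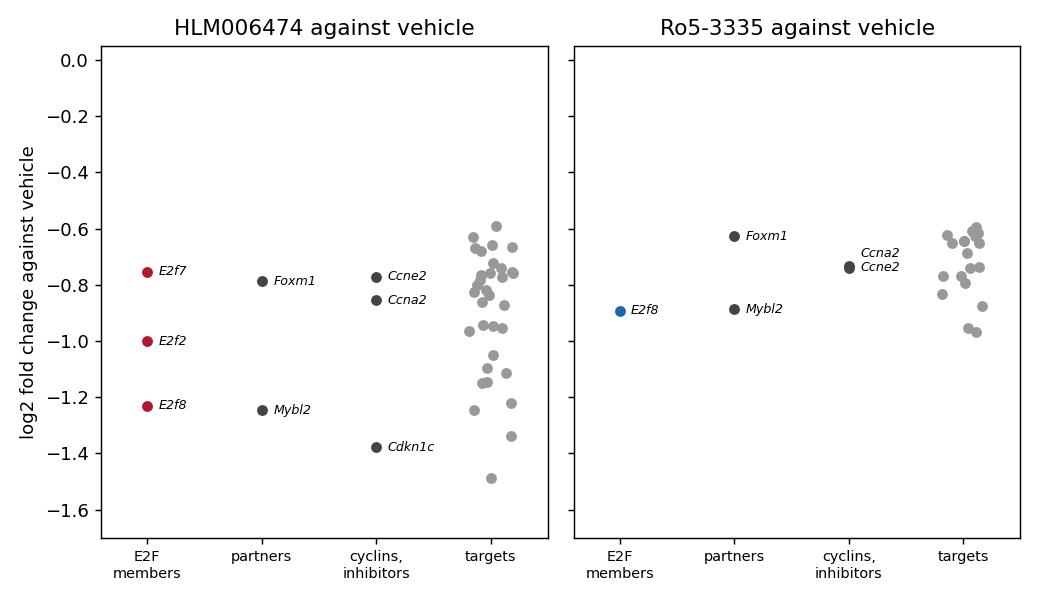
Log2 fold change against vehicle (y axis) of listed E2F members, partners, cyclins and kinase inhibitors, and target genes (x axis) under HLM006474 (left) and the RUNX1 inhibitor (right), each point 1 gene. E2f8 at -1.23 and -0.89 lies near the low end of the targets in both panels.

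Markers of other cell types were listed beside these falls under HLM006474. Of 12 oligodendrocyte lineage markers 7 were lower under HLM006474 and none was listed under the RUNX1 inhibitor. Under SB431542 1 was lower, Cspg4, which is also counted among the fibroblast and mural cell markers. Over all genes tested, 4.22%, 2.32% and 2.64% were called lower in the same order. Sox10, the transcription factor of that lineage, stood at -1.10 ± 0.18, and Pdgfra, the growth factor receptor of its precursors, at -0.84 ± 0.14 under HLM006474 in the authors' deposited table. Their part in the fall of the E2F genes was not tested.

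The genes nearest to E2f8 in their pair of fold changes, among 153 others listed under HLM006474 and the RUNX1 inhibitor but not SB431542, were Mybl2 at a Euclidean distance of 0.017, Uhrf1 at 0.022 and Lsp1 at 0.11. Lsp1 stood at -1.19 ± 0.10 and -0.999 ± 0.10 in the authors' deposited tables. For Runx3, among 103 others listed under HLM006474 and SB431542 but not the RUNX1 inhibitor, they were Dclk3 at 0.067, Col8a2 at 0.083 and Bcat1 at 0.14. Col8a2, a collagen chain, stood at -0.90 ± 0.082 under HLM006474 and -0.74 ± 0.081 under SB431542 in the authors' deposited tables. The distances rest on 2 comparisons that share the vehicle cultures. For members listed once, likeness is a match of 1 fold change. The closest to E2f2 were St6galnac5, Vwa3a and Srpx, to E2f7 Eme1, Masp1 and Mboat1, and to Runx2 C1qa, Caps2 and Mycbp.

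None of 18 RUNX partners and cofactors was listed under HLM006474 or the RUNX1 inhibitor. Under SB431542 2 were higher, the myeloid transcription factor gene Spi1 at 0.67 ± 0.073 and the corepressor gene Tle2 at 1.83 ± 0.58 in the authors' deposited table, the latter at a mean count of 19.3. Of 20 known RUNX target genes, 2 were listed under HLM006474, both lower, and 2 under the RUNX1 inhibitor, 1 lower and 1 higher. Under SB431542 6 were listed, 4 lower and 2 higher. The shares of all genes tested that were called lower and higher were 4.22% and 1.42% under HLM006474. They were 2.32% and 0.605% under the RUNX1 inhibitor, and 2.64% and 2.29% under SB431542. Spp1, the matrix protein osteopontin, was lower under all 3 compounds, at -0.63 ± 0.071 under HLM006474, -0.74 ± 0.071 under the RUNX1 inhibitor and -0.84 ± 0.071 under SB431542 in the authors' deposited tables. Tnfrsf11b, the decoy receptor osteoprotegerin, stood at -0.87 ± 0.10 under HLM006474 and -0.61 ± 0.10 under SB431542 in the authors' deposited tables. Alpl, the tissue-nonspecific alkaline phosphatase, was the target that rose under the RUNX1 inhibitor, at 2.78 ± 0.40 in the authors' deposited table. Its SE is large for a mean count of 1139, since Foxm1 at a mean count of 1004 had 0.12 under this compound. The collagen genes Col1a1 and Col1a2 stood at -1.08 ± 0.054 and -0.90 ± 0.061 under SB431542 in the authors' deposited table. The 2 higher under SB431542, named after their values were seen, were the chemokine gene Ccl5 at 1.34 ± 0.38 and Cd4 at 1.19 ± 0.45 in the authors' deposited table.

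Beside the falls of Runx2 and Runx3 under SB431542, 9 of 15 TGF-beta response genes were listed as lower and none as higher, with a median of -1.66 over those listed, beside -0.88 over all genes listed as lower. Over all genes tested, 2.64% were called lower under SB431542, 4.22% under HLM006474 and 2.32% under the RUNX1 inhibitor. Pmepa1, a feedback inhibitor of SMAD signalling, stood at -3.43 ± 0.11 and Skil, a SMAD corepressor, at -1.66 ± 0.062 in the authors' deposited table. Both RUNX changes were small beside these. Runx3 also fell under HLM006474, where 3 of the 15 were lower, and under the RUNX1 inhibitor 2 were lower. Tgfbi, a matrix protein, had -1.04 ± 0.072 under HLM006474 in the authors' deposited table.

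Myeloid markers were listed for HLM006474 and SB431542, as Runx3 was. For the RUNX1 inhibitor the limits allow Runx3 a fitted value down to 62.0% of vehicle, so its absence there does not set that compound apart. Of 14 microglia and macrophage markers, 5 were lower and 2 higher under SB431542, 3 lower and 1 higher under HLM006474, and none was listed under the RUNX1 inhibitor. Over all genes tested, 2.64% were called lower and 2.29% higher under SB431542, and 4.22% lower and 1.42% higher under HLM006474. Under the RUNX1 inhibitor 2.32% were called lower and 0.605% higher. Microglial Tmem119 stood at -4.00 ± 0.11 under SB431542 and -1.08 ± 0.070 under HLM006474 in the authors' deposited tables. The fractalkine receptor gene Cx3cr1 stood at -2.21 ± 0.081 under SB431542 in the authors' deposited table. The markers that went the other way were Cd68, at 0.72 ± 0.075 under SB431542 in the authors' deposited table, and Lyz2, at 0.65 ± 0.18 under SB431542 and 1.08 ± 0.18 under HLM006474 in the authors' deposited tables. Of the fibroblast and mural cell markers, 5 of 10 were lower under SB431542, Col1a1 and Col1a2 among them. Under HLM006474 4 of these 10 were lower and 1 higher, and under the RUNX1 inhibitor 2 were lower. None of the 8 T and NK cell markers and none of the 6 endothelial markers was listed for any compound. Of 8 neuronal markers 1 was listed for each compound, Syt1 and Tubb3 lower under HLM006474 and the RUNX1 inhibitor and Nefl higher under SB431542. Of 12 astrocyte and Müller glia markers 1 was lower under HLM006474 (Fabp7), 2 under the RUNX1 inhibitor (Fabp7 and Rlbp1) and 1 under SB431542 (Kcnj10), and none was listed as higher. The part of these cell types in the values of Runx2 and Runx3 was not tested.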

How the data were processed

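RNA sequencing of 13 cultures was processed by the authors with CASAVA 1.8, STAR 2.7 and DESeq2 1.30.1 on GRCm38, per the submitters' processing notes; no source used here gives the strandedness, the read counter or the annotation. The deposited files are 3 tables of compound against vehicle. Per the file headers, the authors give a mean normalised count (a signal averaged over libraries), a log2 fold change and its standard error, a Wald score, and a p-value with its adjusted p-value. The mean count of a gene is the same in all tables. There are no values per sample, so the authors' fit was used as deposited, no count test was run, and library depth is unknown. Ranks implied by the ratio of p to adjusted p gave the number of genes tested: it made 81.1%, 83.6% and 80.5% of ranks whole within 0.02 for HLM006474, the RUNX1 inhibitor and SB431542. The smallest mean count listed was 21.6 for the RUNX1 inhibitor against 5.09 and 5.12 for HLM006474 and SB431542.

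Differences between compounds used a 2-sided z test with Benjamini-Hochberg adjustment within a pair (scipy 1.17.1), tested on simulated data. The 2 standard errors were squared, added and rooted as if independent. This ignores the shared vehicle and widens the error. The test for members in 1 of 2 tables was added after the data were seen. Intervals are the value ± the normal 95% width. Coordinates and exons are from GENCODE M21, which is on GRCm38. The members and lists were chosen with earlier results of these data known. Named genes are all members, up to 4 genes per list and table by lowest adjusted p, and the 3 nearest genes to each listed member. Alternatives were a stricter adjusted p, fold or mean count, another standard error and another promoter window.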

Additional observations from a re-analysis of the deposited data

How the results depend on the processing

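Of 32 alternative values, 25 kept their call or stayed within 1.5 times and 7 moved, all 7 of them counts of genes. With a fold of at least 2, the members listed were 2 under HLM006474 (E2f2 and E2f8), 0 under the RUNX1 inhibitor and 0 under SB431542, and the E2F targets listed were 9 under HLM006474 and 0 under the RUNX1 inhibitor. Under SB431542 the members listed were 1 with an adjusted p under 0.01 (DESeq2; Runx2) and 1 with a mean count of at least 100 (also Runx2). Under HLM006474 an adjusted p under 0.01 left 3 members, without E2f7. These counts fall because fewer genes pass. With the variance of the shared vehicle removed, the difference of E2f8 between HLM006474 and the RUNX1 inhibitor had an adjusted p of 0.0939 (z test on DESeq2 fold changes), with an unadjusted interval from -0.62 to -0.06, and 34 in place of 20 of the 211 genes in both tables passed. No paired analysis was possible because the tables hold no values per sample, and for the same reason no culture could be left out in turn. Low counts limit Runx3.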
